A study of Bos taurus with 21 samples.

Results

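Milk vesicle libraries of clinical mastitis (7) were compared with those of subclinical mastitis (7), 14 of the 21 libraries of the series, chosen by their labelled group. The libraries were treated as independent, and whether any come from the same cow could not be decided. The other 7 libraries, from healthy cows, were kept in the fit for its estimate of the spread and are not compared here. They also bear on which entries were tested, since 5 of the 126 were at 0 in all 14 mastitis libraries. The RNA sequenced in each library came from extracellular vesicles in the milk of the cows. Libraries are called by group and by the number in their titles: clinical 1, 3, 4, 5, 6, 9 and 10, and subclinical 1, 2, 3, 4, 5, 6 and 8. No treatment or genetic change is given for any cow. How the forms of mastitis were diagnosed, the bacteria involved, and the cows' age, breed and stage of lactation do not appear in the labels. All 126 rows of the table were used: 89 with a miRNA name and 37 with only a provisional identifier such as X_42271, which the files do not pair with a sequence or a gene.

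Mastitis is inflammation of the udder. In the clinical form the milk or the udder is visibly altered, while the subclinical form is found only by testing the milk. Extracellular vesicles are membrane-bound particles that cells release, and in milk they come largely from the mammary epithelium, with leukocytes entering in inflammation. They carry miRNAs, short RNAs of which bases near the 5′ end, the seed, pair with target mRNAs and lower their output.

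Values are shares of the reads assigned to the listed entries of a library. The steps between the deposited values imply how many such reads there were, 2851 to 5511 in clinical and 1785 to 4979 in subclinical libraries. The means were 4205 ± 983 and 3313 ± 1112 reads (SD, n = 7 each), a difference that was not called (exact permutation p = 0.137, two-sided). With 7 libraries per group this does not show equal depth. A single read was therefore worth 0.0181% to 0.0351% of a clinical library and 0.0201% to 0.0560% of a subclinical one, and 74.7% of the 1764 values were 0. Subclinical 4 stands apart: named miRNAs took 381 of its 2994 reads, 12.7%, with an exact Clopper-Pearson 95% interval of 11.6% to 13.97%. In the other 13 libraries they took at most 0.355%. Each result is therefore given with and without that library. Such intervals cover counting error only, and the reads were not counted as single molecules.

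Clinical vesicles had a more concentrated small RNA profile. The 3 most abundant entries, the provisional X_42271, 16_27381 and 2_2827, together took 74.5% to 91.1% of the reads in clinical libraries, with a median of 87.5%. In subclinical libraries they took 45.6% to 80.2%, with a median of 71.1%. Clinical 4 and clinical 6, at 74.5% and 76.6%, lay within the subclinical range, and the other 5 clinical libraries lay above it. The means were 84.5% ± 6.31 in clinical and 68.1% ± 12.8 in subclinical libraries (SD, n = 7 each), a difference of 16.3 percentage points (exact permutation p = 0.00641, adjusted p = 0.014 over 6 library measures). Without subclinical 4 the difference was 16.8 points (exact p = 0.00874, adjusted p = 0.0297). Shares show proportions: fewer vesicles or cells of a type and less RNA in each cannot be told apart here.

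**Figure D1:**
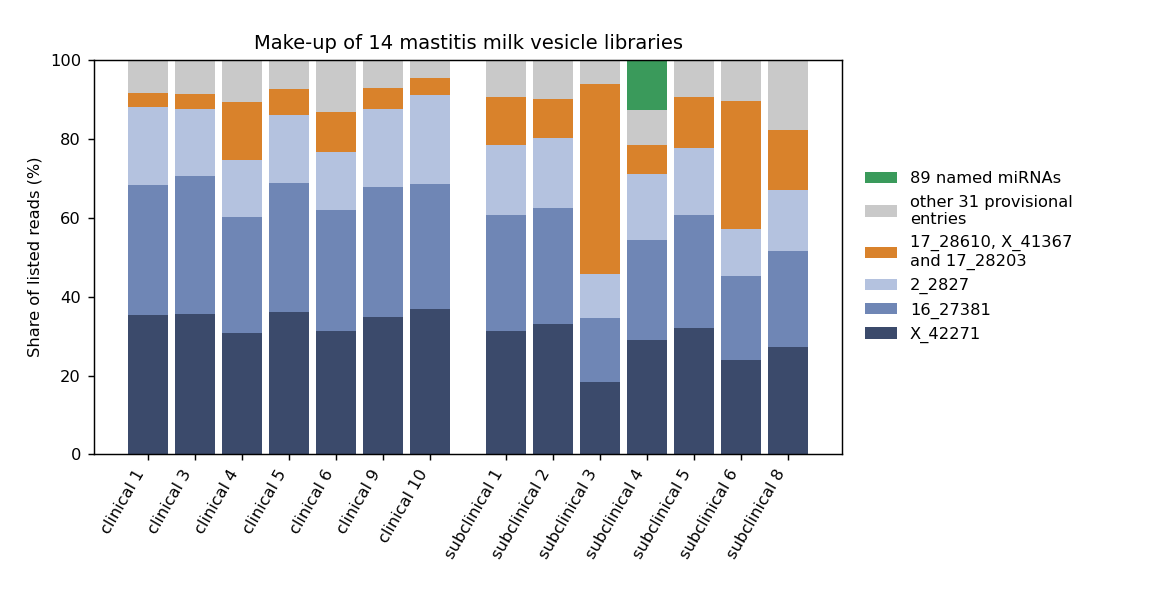
Each bar is 1 library, clinical on the left and subclinical on the right, and its parts are the share of listed reads (%) of the entries in the legend. The blue parts together reach 91.1% in clinical 10, while the orange part is widest in subclinical 3 (48.3%) and the green part is visible in subclinical 4 (12.7%).

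The effective number of entries says how many equally abundant entries would give the same diversity (the exponential of the Shannon entropy). It was 4.403 to 6.65 in clinical libraries, with a median of 4.91, and 6.18 to 10.1 in subclinical libraries, with a median of 6.99. The groups overlapped through clinical 4 and clinical 6 only, at 6.60 and 6.65. The means, 5.32 ± 0.917 in clinical and 7.47 ± 1.45 in subclinical libraries (SD, n = 7 each), differed (exact permutation p = 0.00699, adjusted p = 0.014). Without subclinical 4 the subclinical mean was 7.03 ± 0.948 (SD, n = 6), with an exact p of 0.0105 and an adjusted p of 0.0297.

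On average fewer entries were expected in clinical vesicles once depth was made equal, though the groups overlapped. In a draw of 1785 reads, the size of the smallest of the 14 libraries, 22.1 ± 2.72 entries are expected in clinical and 32.6 ± 18.9 in subclinical libraries (SD, n = 7 each; exact permutation p = 0.00874, adjusted p = 0.014). The subclinical mean owes much to subclinical 4, at 75.4, and without it was 25.5 ± 1.57 (SD, n = 6; exact p = 0.0198, adjusted p = 0.0297). The ranges were then 17.1 to 25.6 in clinical and 22.5 to 27 in subclinical libraries. With subclinical 4 kept, leaving out any 1 clinical library ended the call, with adjusted p-values of 0.0513 to 0.163. Unequal group sizes can raise p here, since subclinical 4 weighs more in the mean of a smaller group, but their part in that rise was not tested. Regroupings that place it there can give larger differences. Leaving out any 1 subclinical library gave adjusted p-values of 0.00699 to 0.0297. The plain number of entries above 0 was 26 ± 3.06 in clinical and 37.9 ± 23.6 in subclinical libraries (SD, n = 7 each). That difference did not pass (exact p = 0.0688, adjusted p = 0.0825), and 29 ± 3.22 entries (SD, n = 6) in the subclinical libraries without subclinical 4 left it at an exact p of 0.124. Provisional entries above 0 numbered 19 to 26 in clinical and 22 to 25 in subclinical libraries, and were not tested apart.

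**Figure D2:**
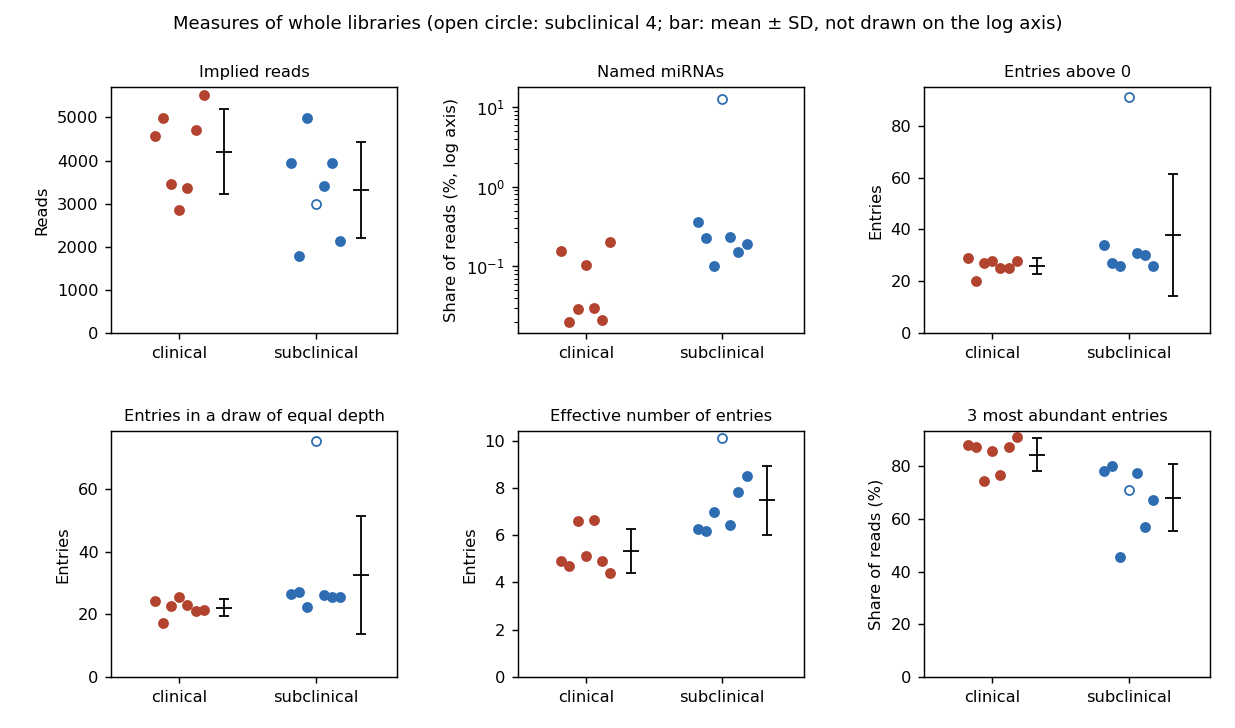
Each point is 1 library, clinical left and subclinical right in each panel, with the measure and its unit on the y axis, and bars give the mean and SD (none on log axes). Subclinical 4, the open circle, is far above the rest for named miRNAs (12.7%), entries above 0 (91) and entries at equal depth (75.4), but lies inside its group for the 3 most abundant entries (71.1%).

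Among single entries, 4 of 126 passed (3.17%), all 4 lower in clinical than in subclinical vesicles: miR-21-5p and the provisional 17_28203, 17_28610 and X_41367. They passed limma's moderated test of log2(RPM + 1) at a Benjamini-Hochberg adjusted p under 0.05. Without subclinical 4 the same 4 passed, of the 76 entries above 0 in the 20 libraries left, healthy ones included (5.26%). Of the 76, 69 were above 0 in the mastitis libraries left. Without adjustment, a limma p under 0.05 was reached by 13 of 126 entries (10.3%), 11 lower (8.73%) and 2 higher (1.59%), and without subclinical 4 by 9 of 76 (11.8%), 7 lower (9.21%) and 2 higher (2.63%). The clinical mean was below the subclinical one for 95 of 126 entries (75.4%), and for 45 of 76 without subclinical 4 (59.2%). The median fitted log2 difference over all entries was -1.20 with subclinical 4 and -0.22 without it.

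The named entry among them, miR-21-5p, is expressed in many tissues and is commonly raised in inflamed ones. Its reads in the 7 clinical libraries were 0 in each. In subclinical libraries it had 1 to 3 reads in subclinical 1, 2, 3, 5, 6 and 8 and 163 reads in subclinical 4. Its shares were 0% throughout the clinical group, and 0.0254% at the lowest, 0.0603% at the median and 5.44% at the highest in the subclinical group, so the groups did not overlap. This was the only entry of the 126 (0.794%) whose groups were apart, and without subclinical 4 it was again the only such entry, of 76 (1.32%).

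The adjusted p of miR-21-5p was 0.000241 in limma's test, and 0.00622 without subclinical 4. On the log2(RPM + 1) scale the fit gave -10.02 (SE 1.94), a size that depends on the pseudocount since the clinical libraries are all at 0. Taking 3 reads over the clinical group as the limit of detection, 102 RPM, the pooled rate in the 6 subclinical libraries other than subclinical 4 was at least 5.34-fold higher. The exact permutation p was 0.000583 with and without subclinical 4, the smallest that the regroupings allow. Adjusted over all entries it was 0.0734, and 0.0443 without subclinical 4. Exact permutation reached an unadjusted p under 0.05 for 9 of 126 entries (7.14%) and for 7 of 76 without subclinical 4 (9.21%), and after adjustment for 0 and 2 (2.63%). With a pseudocount of 500 RPM, near the 560 RPM that a read is worth in the shallowest of the 14 libraries, the limma call was lost (adjusted p = 0.0867, and 0.166 without subclinical 4).

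The 3 provisional entries that fell were lower in most clinical libraries, though not in all. Entry 17_28203 took 0.145% of the reads at the lowest, 0.421% at the median and 2.32% at the highest in clinical libraries, against 0.896%, 1.83% and 4.92% in subclinical ones. Entry 17_28610 took 2.47%, 3.47% and 8.48% in clinical libraries, against 4.28%, 7.48% and 30.3% in subclinical ones. Entry X_41367 took 0.898%, 1.49% and 4.14% in clinical libraries, against 1.84%, 3.40% and 13.1% in subclinical ones.

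Clinical 4 was the highest clinical library for all 3, and subclinical 3 and 6 were the highest subclinical ones. Of the 49 pairs of a clinical with a subclinical library, the clinical one was lower in 44 for 17_28203, in 43 for 17_28610 and in 42 for X_41367. Summed, the 3 entries took 6.99% ± 4.16 of the reads in clinical and 19.8% ± 15.0 in subclinical libraries (SD, n = 7 each), or 21.9% ± 15.3 without subclinical 4 (SD, n = 6). Subclinical 3 alone reached 48.3% and subclinical 6 reached 32.6%, while the other 5 subclinical libraries lay between 7.35% and 15.2%.

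The limma log2 difference for 17_28203 was -2.19 (SE 0.51), with an adjusted p of 0.00323, and -2.31 (SE 0.58) without subclinical 4, with 0.0120. For 17_28610 it was -1.27 (SE 0.30), also at 0.00323, and -1.47 (SE 0.38) without subclinical 4, at 0.0120. For X_41367 it was -1.38 (SE 0.38) at an adjusted p of 0.0149, and without subclinical 4 it was -1.57 (SE 0.44) at 0.0197. The ratios of the clinical to the subclinical mean share were 0.279 for 17_28203, 0.367 for 17_28610 and 0.357 for X_41367, or 0.258, 0.331 and 0.322 without subclinical 4. For 17_28203, clinical libraries averaged 0.409% ± 0.275 (SD, n = 6) once clinical 4 was left out, and 0.681% ± 0.763 (SD, n = 7) with it. These limma errors borrow from other entries: without a trend of variance on abundance they were 0.68, 0.56 and 0.59, and none of the 3 passed (adjusted p = 0.269, 0.325 and 0.325). Exact permutation of each entry alone gave p = 0.00583, 0.0128 and 0.0175, and 0.00758, 0.00641 and 0.00991 without subclinical 4, none of which passed after adjustment (lowest 0.115).

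**Figure D3:**
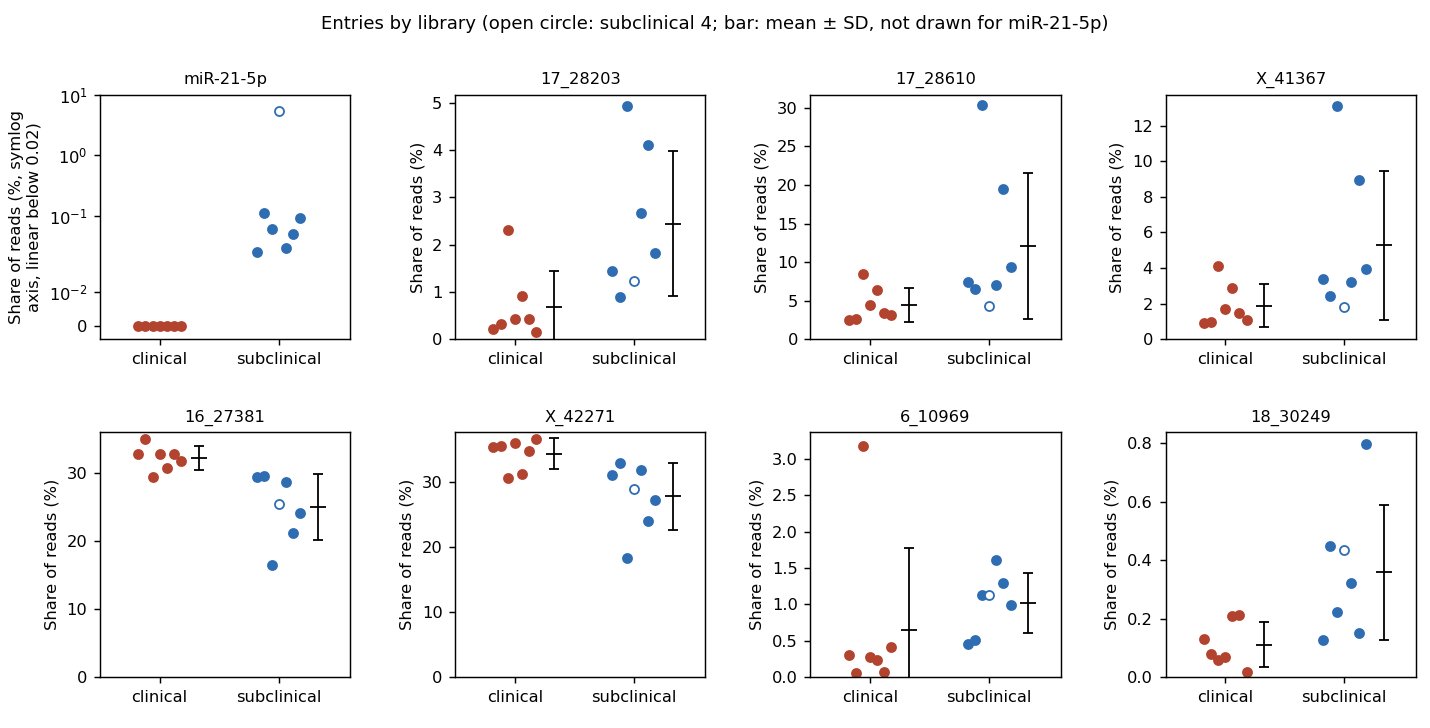
Each point is the share of listed reads (%) of 1 entry in 1 library, clinical left and subclinical right, with the mean and SD as bars (none for miR-21-5p) and subclinical 4 as the open circle. For miR-21-5p all 7 clinical points lie at 0 on an axis that is logarithmic above 0.02%, and for 17_28203, 17_28610 and X_41367 the highest clinical point is clinical 4 (2.32%, 8.48% and 4.14%).

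The 3 most abundant entries had higher mean shares in clinical vesicles, but none of them passed limma's test. Entry 16_27381 took 29.4% of the reads at the lowest, 32.7% at the median and 34.998% at the highest in clinical libraries, against 16.4%, 25.4% and 29.5% in subclinical ones. In 48 of 49 pairs of libraries the clinical one was higher, clinical 4 and subclinical 2 being the exception. The means were 32.2% ± 1.78 in clinical and 24.9% ± 4.85 in subclinical libraries (SD, n = 7 each), a log2 difference of 0.39 (SE 0.14, limma adjusted p = 0.178, and 0.242 without subclinical 4).

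For that entry the exact permutation p was 0.00117 with and without subclinical 4. Adjusted, it was 0.0734 over 126 entries and 0.0443 over the 76 left without subclinical 4, so that 16_27381 and miR-21-5p passed there. Entry X_42271 took 34.4% ± 2.39 in clinical and 27.8% ± 5.21 in subclinical libraries (SD, n = 7 each), and was higher in 44 of 49 pairs. Its log2 difference was 0.33 (SE 0.14, limma adjusted p = 0.257, and 0.310 without subclinical 4; exact p = 0.00524 and 0.00699 before adjustment). The third, 2_2827, took 17.9% ± 3.01 in clinical and 15.4% ± 2.83 in subclinical libraries (SD, n = 7 each), a log2 difference of 0.22 (SE 0.17, limma adjusted p = 0.319, and 0.473 without subclinical 4).

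The scale matters for which side carries the calls, because shares have a fixed total. A rise in some abundant entries and a fall in others cannot be told apart from shares alone. Scaling by the median ratio over the 16 entries above 0 in all 21 libraries shifted the log2 differences by 0.27, and scaling by a trimmed mean of log ratios shifted them by 0.57. Under both, 16_27381 passed as higher and miR-21-5p as lower, while 17_28203, 17_28610 and X_41367 kept negative differences but did not pass. With median-ratio scaling and without subclinical 4, only miR-21-5p passed. Ratios within a library do not depend on scaling. The reads of X_42271 were 3.62 to 14.3 times those of 17_28610 in clinical libraries, with a median of 10.1, and 0.604 to 6.78 times in subclinical libraries, with a median of 4.17. The mean ratio was 9.47 ± 4.13 in clinical and 3.61 ± 2.18 in subclinical libraries (SD, n = 7 each), or 3.08 ± 1.83 without subclinical 4 (SD, n = 6). Against 16_27381 the ratio varied less: X_42271 held 1.02 to 1.16 reads per read of 16_27381 in clinical and 1.06 to 1.14 in subclinical libraries.

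**Figure D4:**
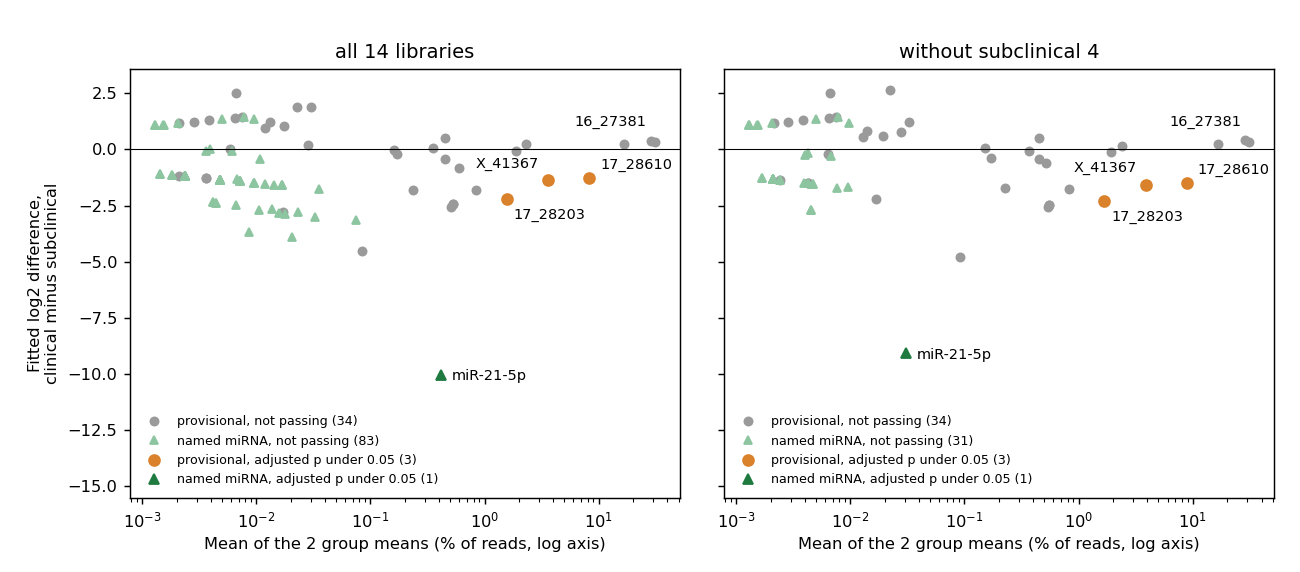
Each point is an entry, with the mean of the clinical and subclinical mean shares on a log x axis (%) and the limma log2 difference on the y axis, for all 14 libraries on the left (121 entries above 0) and without subclinical 4 on the right (69 entries above 0). Entries above the line are higher in clinical vesicles, and the 4 that passed all lie below it in both panels.

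No other provisional entry passed with all libraries, and for several of them 1 library stood out. Entry 6_10969 took 0.0602% of the reads at the lowest, 0.281% at the median and 3.18% at the highest in clinical libraries, against 0.457%, 1.12% and 1.61% in subclinical ones. Clinical 4 was the only clinical library above 0.417%, which is below every subclinical library. With it the log2 difference was -1.78 (SE 0.73, limma adjusted p = 0.257, and 0.274 without subclinical 4). Without clinical 4 the clinical mean was 0.228% ± 0.141 (SD, n = 6), and the entry passed in limma's test (log2 difference -2.38, adjusted p = 0.0474). It also passed without both clinical 4 and subclinical 4 (log2 difference -2.33, limma adjusted p = 0.0187), a setting added after the data were seen.

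Entry 18_30249 took 0.0181%, 0.0802% and 0.213% at the lowest, median and highest in clinical libraries, against 0.127%, 0.323% and 0.798% in subclinical ones. The clinical library was lower in 44 of 49 pairs, but the log2 difference of -1.80 (SE 0.91) did not pass (limma adjusted p = 0.319, and 0.350 without subclinical 4; exact p = 0.00758 before adjustment). Entry 27_38734 was above 0 in 4 of 7 clinical and 7 of 7 subclinical libraries, with 11 clinical and 26 subclinical reads, and did not pass (limma adjusted p = 0.257, and 0.286 without subclinical 4). Entries 18_29617 and 2_4412 held identical reads in every library, and 29_39931 differed from them by at most 1 read in each of the 14, so the 3 count as a single measurement. Of these, 2_4412 took 0.344% ± 0.383 in clinical and 0.704% ± 0.917 in subclinical libraries (SD, n = 7 each; limma adjusted p = 0.257, and 0.399 without subclinical 4), and without subclinical 8, at 2.77%, the subclinical mean was 0.360% ± 0.121 (SD, n = 6).

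In all, 16 entries were above 0 in each of the 14 libraries, all of them provisional. They took 96.3% to 99.9% of the reads in clinical libraries and 85.9% to 99.1% in subclinical ones, or at least 90.9% without subclinical 4. Of the 16, 10 had a negative fitted log2 difference, of which 3 passed, and 6 a positive one, with a median of -0.12. The median was -0.25 without subclinical 4. Entry 13_22779 took 0.372% ± 0.148 in clinical and 0.340% ± 0.125 in subclinical libraries, 4_8133 took 1.90% ± 1.02 in clinical and 1.85% ± 0.610 in subclinical libraries, and 12_21573 took 2.48% ± 0.841 in clinical and 2.14% ± 0.807 in subclinical libraries (SD, n = 7 each). None of these 3 differences passed (limma adjusted p of 0.610 to 0.999, and 0.899 to 1 without subclinical 4).

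Named miRNAs were rare in both groups outside subclinical 4. They held 25 of 29434 reads in clinical libraries (0.0849%, exact 95% interval 0.0550% to 0.125%) and 41 of 20197 in the 6 subclinical libraries other than subclinical 4 (0.203%, 0.146% to 0.275%). Per library their share was 0.0201% to 0.1996% in clinical libraries, with a median of 0.0297%, and 0.1004% to 12.7% in subclinical libraries, with a median of 0.224%. The share was lower in clinical libraries by 1.92 percentage points with subclinical 4 (exact permutation p = 0.00932, adjusted p = 0.014) and by 0.129 points without it (exact p = 0.0152, adjusted p = 0.0297). With any 1 clinical library left out and subclinical 4 kept, the exact p was 0.464 to 0.471. Group sizes fix that rise, since subclinical 4 weighs more in the mean of the smaller group. Regroupings that place it there give larger differences, whichever clinical library is left out. The rise therefore cannot show that the call rests on each clinical library. Leaving out any 1 subclinical library gave an exact p of 0.00291 to 0.0152.

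The call did not hold without miR-21-5p. With it left out of the sum, a setting added after the data were seen, the named share was 0.0797% ± 0.0736 in clinical (SD, n = 7) and 0.147% ± 0.104 in subclinical libraries without subclinical 4 (SD, n = 6). The exact permutation p was then 0.205, and 0.105 with subclinical 4, where the subclinical mean was 1.17% ± 2.70 (SD, n = 7). The other named miRNAs held 25 reads in clinical libraries, 849 RPM (Poisson 95% interval 550 to 1254). In the 6 subclinical libraries they held 30, or 1485 RPM (1002 to 2120).

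Of the 89 named miRNAs, clinical libraries held 14 and the 6 subclinical libraries other than subclinical 4 held 24, with 6 in both. Over all 126 entries, 34 were in both, 14 only in clinical and 21 only in these subclinical libraries. With so few reads per entry, such counts were not tested. In clinical libraries, hsa-miR-8485 had 6 reads, all in clinical 10, and miR-1246, a sequence that resembles a fragment of a small nuclear RNA, had 4 reads in clinical 1 and 1 in clinical 3. Apart from miR-21-5p, no named miRNA was above 0 in more than 2 of the 7 clinical or 3 of the 7 subclinical libraries. At these depths a count of 0 in a clinical library allows a share of up to 0.0544% to 0.105% (3 reads), so lower shares may go unseen in a single library.

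**Figure D5:**
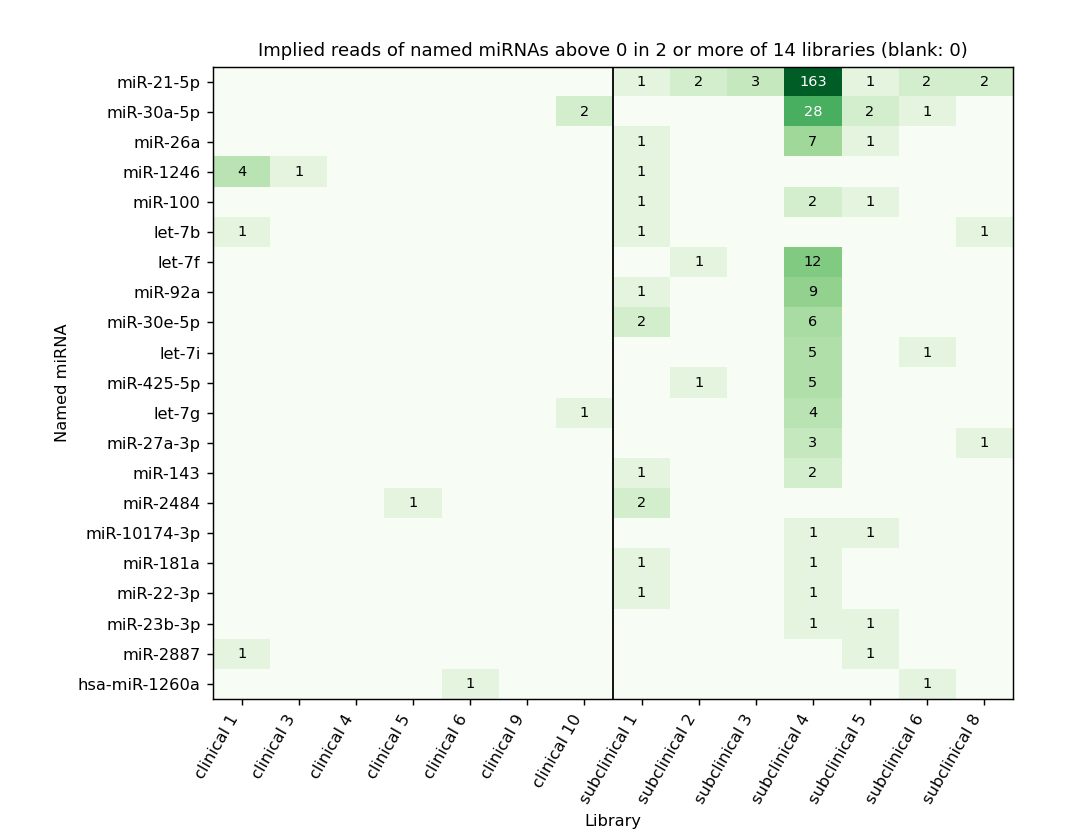
Rows are the 21 named miRNAs above 0 in at least 2 of the 14 libraries, columns are libraries with clinical left of the line, and each number is the implied reads (blank is 0). The row of miR-21-5p is blank in all 7 clinical columns and filled in all 7 subclinical ones, and the column of subclinical 4 holds most of the rest.

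Subclinical 4 held 68 named miRNAs, 43 of them at 1 or 2 reads and 14 at 5 or more. Among the 68, miR-21-5p took 42.8% of the 381 reads. The next were miR-30a-5p with 28 reads, a member of a family abundant in epithelial cells, miR-24-3p with 15, let-7f with 12 and miR-92a with 9. Of the 68, 16 were above 0 in another of the 14 libraries, but only 2, let-7g and miR-30a-5p, in a clinical one. The library had 23 provisional entries above 0, within the 22 to 25 of the other subclinical libraries.

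Groups of related miRNAs held few reads outside subclinical 4. Of 18 miRNAs listed as abundant in milk, 13 were measured. They held 3 reads in clinical libraries and 265 in subclinical ones, 20 of these outside subclinical 4, and 1 of the 13, miR-21-5p, passed in limma's test, as lower, beside 3.17% of all entries. Without subclinical 4 it was 1 of 7, beside 5.26%. Their median log2 difference was -1.60, against -1.20 over all 126 entries, and without subclinical 4 it was -1.65 over the 7 members, against -0.22 over all 76. Outside subclinical 4, 6 members had subclinical reads and 2 had clinical ones. A member with reads in subclinical libraries only has a negative difference by construction. The median is therefore not a result about the list. Of 12 miRNAs that respond to inflammation and NF-kB signalling, 4 were measured: miR-21-5p, miR-221, miR-222 and miR-125b. They held 0 reads in clinical and 179 in subclinical libraries, and the 11 outside subclinical 4 were all miR-21-5p.

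Of the let-7 family, which restrains cell growth, 6 of 9 members were measured and held 2 reads in clinical and 32 in subclinical libraries, 4 of them outside subclinical 4. For the miR-30 family, with 4 of 6 members measured, the reads were 2 in clinical and 50 in subclinical libraries, 5 of them outside subclinical 4. The miR-17 cluster and its paralogues, which promote proliferation, had 7 of 13 members measured, with 0 clinical and 18 subclinical reads, 1 of them outside subclinical 4. Of 7 relatives listed with miR-100, 5 were measured (miR-100, miR-10b, miR-99b, miR-125a and miR-125b) and had 0 clinical and 10 subclinical reads, 2 of them outside subclinical 4. No member of these 4 groups passed in limma's test, and the median log2 differences were -1.44 for let-7, -2.23 for miR-30, -1.20 for the miR-17 clusters and -1.34 for the miR-100 relatives, against -1.20 over all entries. Without subclinical 4 they were -1.33 over 5 let-7 members, -1.57 over 2 of miR-30, -0.67 over 2 of the miR-17 clusters and -1.35 over 2 of the miR-100 relatives, against -0.22 over all entries. In the miR-17 clusters miR-19a, and among the miR-100 relatives miR-99b, had 0 reads in all 14 libraries. Without subclinical 4, the medians of these 2 groups each averaged 1 member with reads and 1 without. The medians of the 4 groups too are lowered by members with a few reads in subclinical libraries only, and are not results about the families.

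Markers of the cells that could release milk vesicles were at or near 0, so the labelled source could not be checked from them. Of 9 epithelial miRNAs, miR-182 and miR-183 were measured, with 0 clinical and 5 subclinical reads, 4 of them in subclinical 4. Of 8 leukocyte miRNAs, miR-181a and miR-181b were measured, with 0 clinical and 3 subclinical reads, 2 of them in subclinical 4. The summed share was 0% in every clinical library for both lists. In subclinical libraries it reached 0.134% for the epithelial and 0.0668% for the leukocyte list, in subclinical 4. Clinical libraries held 0 reads of miR-143 and miR-22-3p from a mesenchymal list, miR-16b from an erythrocyte list and miR-126-3p from an endothelial list. They also held 0 reads of the pair miR-148b and miR-152. Subclinical libraries held 5 reads of the mesenchymal list, 2 of the erythrocyte list, 1 of the endothelial list and 4 of the pair. Outside subclinical 4 these came to only 2 reads, 1 of miR-143 and 1 of miR-22-3p. The part of such cells in the differences above was not tested.

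Whole profiles differed between the groups. Group membership accounted for 30.8% of the variation in Bray-Curtis distances (exact permutation p = 0.00699), and for 36.2% without subclinical 4 (exact p = 0.00699). With provisional entries only, it was 30.1% (exact p = 0.00991), and 36.1% without subclinical 4 (exact p = 0.00699). With Euclidean distances of log2(RPM + 1), which give rare entries more weight, it was 12.3% (exact p = 0.000583), and 12.6% without subclinical 4 (exact p = 0.0035). The median distance was 0.0869 over the 21 pairs of clinical libraries, 0.185 over the 21 pairs of subclinical libraries and 0.175 over the 49 pairs between groups. Without subclinical 4 the medians were 0.189 within subclinical and 0.134 between groups. These distances share libraries and were not compared by a test. The permutation test of whole profiles also responds to unequal spread, and subclinical libraries lay farther from each other than clinical ones. A shift in profile and a difference in spread therefore cannot be told apart by its p-values. The median distance of clinical 4 was 0.145 to the other clinical libraries and 0.123 to the subclinical ones, so that it lay nearer to the other group. Subclinical 1, 2 and 5 were nearer to the clinical libraries (0.0983, 0.0831 and 0.114) than to their own group (0.140, 0.148 and 0.142). Subclinical 3 was the farthest from both, at 0.446 from clinical and 0.367 from the other subclinical libraries.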

How the data were processed

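The authors deposited 1 table of 126 entries. Per the labels' protocols, RNA was extracted with a miRNeasy kit and a TruSeq kit for small RNA was used for the libraries. Bowtie, edgeR and ARS-UCD1.2 are named per the submitters' processing notes. Trimming, filters, the miRNA database and the source of the provisional identifiers are steps not given in the sources used here. The deposited values are named TPM but are RPM: each column sums to 1000000, and all 629 values above 0 (100%) lie within 0.01 of a whole multiple of the step of their column, the worth of 1 read. Columns were matched by name, clinical columns having a longer prefix than the titles. All 42 pairs within the groups differed beyond counting noise (chi-square, lowest 1.85 per degree of freedom).

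limma 3.58.1 (R 4.3.3, trend) was fitted to log2(RPM + 1) of all 21 libraries, over entries whose mean reached 1 RPM. The contrast was clinical minus subclinical, p-values were two-sided and Benjamini-Hochberg adjusted, and the test was tried on simulated data. Fold changes on this scale depend on the pseudocount for rare entries. No count model was run, since a table this short does not meet the rule used for recovering reads. Library measures and profiles were tested by exact permutation of all 3432 regroupings (1716 without subclinical 4), two-sided for measures and adjusted over 6 of them (Python 3.11.15, NumPy 2.4.6, SciPy 1.17.1, pandas 2.3.3; figures with matplotlib 3.10.9). The members, lists and tests were chosen with earlier results of these data known. Entries were named where they passed, were among the 12 lowest p-values, the 8 most abundant, above 0 in all 14 libraries, miRNAs above 0 in at least 3, or up to 4 per list by reads. Others named for their reads in single libraries were chosen after their values were seen. RefSeq genes of ARS-UCD2.0 matched 78 of the 79 bovine names. That is another build than the authors', so no coordinates are given.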

Additional observations from a re-analysis of the deposited data

Results flagged for a closer look

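Of 56 sets of 7 values examined for a library far from the rest of its group (Dixon's test, which marks about 1 in 20 sets by chance), 12 held one. They are not independent, since 5 are subclinical 4. That library was far above the other subclinical ones in its named miRNA share (12.7%), its entries above 0 (91), its entries at equal depth (75.4), its miR-21-5p (5.44% of reads) and its miR-26a (0.234%). Clinical 4 was far above the other clinical libraries for 6_10969 (3.18%) and 17_28203 (2.32%). For 2_4412 and 29_39931, which share nearly all their values, clinical 6 was the high library among clinical ones (1.13% and 1.10%) and subclinical 8 among subclinical ones (2.77% and 2.72%). Subclinical 8 was also high for 27_38734 (0.328%).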

How the results depend on the processing

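The 4 entries that passed became 2 with median-of-ratios or trimmed-mean scaling (1 higher, 1 lower), 0 with a pseudocount of 500 RPM, 7 with a minimum mean of 1000 RPM and 2 with entries above 0 in at least 7 libraries. The count was 1 (miR-21-5p) without trend, with array weights, with the replicate number as a block (adjusted p = 0.0408), with median-of-ratios scaling without subclinical 4, and in a fit of 2 groups that kept the 5 entries at 0 in all 14 libraries, the last added after the data were seen. In the fit of 2 groups without those 5 entries it stayed 4. Exact permutation per entry called 0 of 126 (9 at an unadjusted p under 0.05) and, without subclinical 4, 2 of 76. Over 44 alternatives the adjusted p was 3.64e-05 to 0.166 for miR-21-5p, which passed in 41. It was 0.000162 to 0.317 for 17_28203 (34), 5.33e-05 to 0.325 for 17_28610 (33), 0.000900 to 0.325 for X_41367 (29) and 0.0174 to 0.410 for 16_27381 (6). That entry passed as higher under the scalings above (0.0433 and 0.0497), when rescaled without the most abundant entry (0.0418), with the minimum of 1000 RPM (0.0415), with log2 implied reads as a covariate (0.0174) and by exact permutation without subclinical 4 (0.0443). No sign changed.

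Leaving out each library in turn gave 3 to 5 entries: X_41367 was lost without clinical 1 (adjusted p = 0.0729), clinical 10 (0.0703), subclinical 3 (0.0880) or subclinical 6 (0.0792), and 6_10969 was gained without clinical 4. It gave named miRNA differences of -2.23 to -0.129 percentage points, entries above 0 of -13.8 to -3 (passing without subclinical 2, 3 or 8, adjusted p = 0.0336, 0.0252 and 0.0252) and entries at equal depth of -12.2 to -3.36. Without miR-21-5p in the sum the named difference was -1.09 points, and -0.0673 without subclinical 4, neither passing. With 1 clinical library left out, unequal group sizes raised p for the named share and can raise it for the entries at equal depth, as described above. The cause of the other changes was not tested. For the top 3 share, effective number and implied reads, every alternative kept its side of the threshold. Whether the 5 title numbers shared by clinical and subclinical libraries pair them could not be decided, since 5 pairs are too few. Deviations of same-numbered libraries correlated at -0.11 to 0.21, 1 of 5 above 0.1, and 2 of those 5 clinical libraries correlated best with their own number. The main tests treat the libraries as unpaired. With 954 to 9587 listed reads per library, an entry under about 0.1% of the reads rests on a few reads in each library, as miR-21-5p does outside subclinical 4.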
